A study of Ictidomys tridecemlineatus with 15 samples.

Results

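The genes described here are 9 genes of the urea cycle and of hepatic ammonia handling, Cps1, Nags, Otc, Ass1, Asl, Arg1, Glud1, Gls2 and Glul, chosen by symbol. A gene was taken as measured where its symbol was one of the names of a counted transcription unit. This held for 8 of the 9 genes, and each of the 8 had a unit named for that gene alone. The whole table held 6324 units, of which 4705 carried a single gene name and 1619 joined overlapping genes. Arg1, which encodes the arginase that releases urea, had no unit and was not analysed here.

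Global run-on sequencing (GRO-seq) was performed on nuclei from frozen livers of 13-lined ground squirrels (Ictidomys tridecemlineatus), a hibernator that alternates between days of torpor near ambient temperature and brief rewarming. In the assay, polymerases already engaged on DNA extend their transcripts with labelled nucleotides in isolated nuclei at a warm temperature. The labelled RNA is then sequenced. The reads therefore report engaged polymerase and not the amount of mRNA, protein or urea. All animals were females from a breeding colony, kept in the laboratory with implanted temperature recorders, and no drug or genetic change was used. Their ages were not in the labels.

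The 5 states were summer active (SA, warm and not yet hibernating), interbout aroused (IBA, warm between torpor bouts), entrance into torpor (Ent, cooling), early torpor (ET, cold) and late torpor (LT, cold). SA, IBA, Ent and ET had 3 libraries each and LT had 2 (replicates 1 and 3), each from a separate animal, and LT replicate 2 was not analysed here. The animals were collected in different years. All ET livers came from the season that began in 2008, both LT livers from 2007 and all IBA livers from 2009, while SA and Ent mixed 2007 and 2009, so that ET and its season cannot be told apart. Counted reads ranged from 3713883 to 8884763 per library.

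The urea cycle turns ammonia, released when amino acids are broken down, into urea in hepatocytes. Ammonia enters through carbamoyl phosphate in mitochondria, is joined to ornithine and then to aspartate, and leaves as urea while ornithine is regenerated. Hepatocytes near the portal vein run this cycle and also release ammonia from glutamine and glutamate, whereas a thin layer near the central vein captures the remaining ammonia as glutamine. In hibernators that fast through winter, dietary nitrogen stops arriving.

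The 8 units lay on separate stretches of the HiC_Itri_2 assembly. The deposited gene bodies extended from 166776073 to 166898285 on chromosome 6 (plus strand) for Cps1, from 18671607 to 18692117 on chromosome 7 (minus) for Nags, from 25394117 to 25462826 on chromosome 10 (plus) for Otc, and from 197714740 to 197769345 on chromosome 3 (plus) for Ass1. Asl extended from 126332956 to 126347434 on chromosome 9 (minus), Glud1 from 43783778 to 43807812 on chromosome 1 (plus), Gls2 from 58028550 to 58047311 on chromosome 4 (plus) and Glul from 89447206 to 89458222 on chromosome 9 (plus). Each unit spans exons and introns of its gene, without the part next to the start site. Where segments drawn from the reads ran past the annotated 3′ end, the authors extended the unit to them. A unit can therefore also hold sequence downstream of its gene, and which of the 8 were extended was not examined here. The nearest unit was that of Lsm12, 0.443 kb beyond the 3′ end of Nags on the opposite strand. The reads were strand-specific, but whether the counting used the strand is not given in the sources used here.

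The genes were among the more heavily transcribed units of this liver. Per kb of unit length and averaged over the 14 libraries, Cps1 had 24.6 CPM (counts per 1e+06 counted reads, on TMM-normalized library sizes), Ass1 13.8, Glul 12.0, Gls2 11.9, Glud1 8.60, Nags 8.44, Otc 7.40 and Asl 4.79. Cps1 stood at the 98.9th percentile of all units on this per-length scale and Asl, the lowest of the 8, at the 80.8th percentile. Counts were never sparse, with a lowest value of 131 reads for Asl in any library and a highest of 49654 for Cps1. The spread between animals differed widely by gene and state, with an SD from 2.86% of the mean for Glul in SA to 124% for Ass1 in ET.

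As a group, the 8 genes took their highest share of reads in summer. Their share of all counted reads was 1.05% ± 0.547 (SD, n = 3) in SA, 0.437% ± 0.0712 (n = 3) in IBA, 0.357% ± 0.0232 (n = 3) in Ent, 0.311% ± 0.141 (n = 3) in ET and 0.251% ± 0.0710 (n = 2) in LT. Every SA library, at 0.589% to 1.66%, lay above every winter library, of which the highest, IBA replicate 1, had 0.515%. Cps1 and Ass1 carried this separation. Without them the 6 other genes had 0.166% ± 0.0441 in SA, 0.141% ± 0.0186 in IBA, 0.134% ± 0.0237 in Ent, 0.102% ± 0.0160 in ET and 0.0975% ± 0.00990 in LT, and SA replicate 2 lay below all 3 IBA libraries (0.123% to 0.160%).

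**Figure D1:**
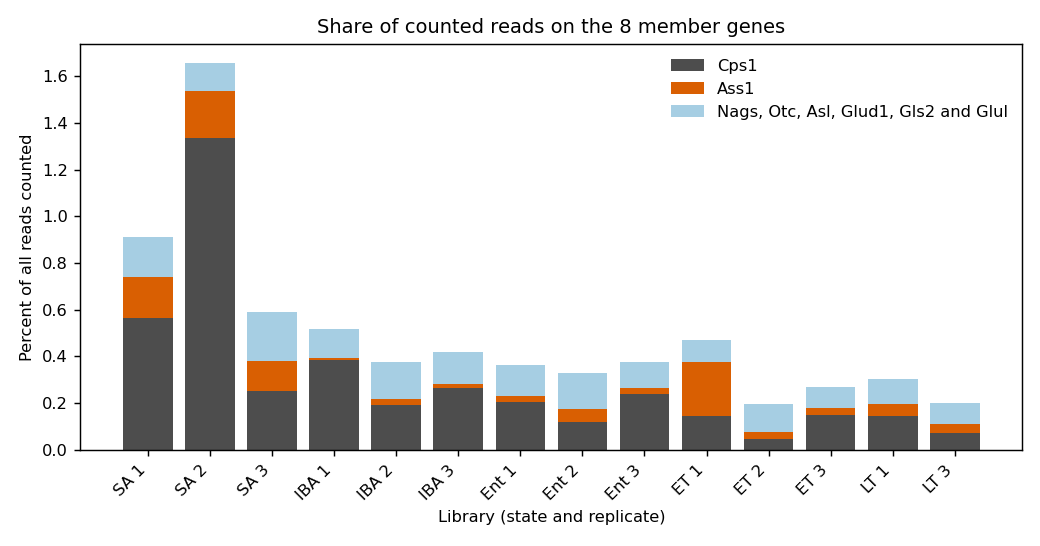
Stacked bars give, for each of the 14 libraries, the percent of all counted reads that fell on Cps1, on Ass1 and on the other 6 genes together. The SA bars reach 0.589% to 1.66%, of which Cps1 makes up 42.5% to 80.7%, and in ET replicate 1 Ass1 makes up 49.0% of the members' reads.

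Differences were tested in edgeR by a quasi-likelihood fit of the 5 states to all 14 libraries and all 6324 units, with Benjamini-Hochberg adjusted p over all units and a threshold of 0.001. Because all values are scaled to library size, a rise or fall here is relative to the other units of the same library. The paper states that such scaling hides shifts in total transcription between states, and absolute levels were not measured here. Among the 5 states, Glud1 (adjusted p = 6.124e-05) and Glul (adjusted p = 0.0001598) passed, 2 of 8 genes, against 25.5% of all units. At an adjusted p of 0.05, 7 of 8 passed, against 62% of all units, and Otc was the exception (adjusted p = 0.6485). With season as a covariate and ET left out, 0 of the 8 genes passed in edgeR among the 4 remaining states, against 1.23% of all units, while 7 of 8 had an unadjusted p under 0.05, against 55.4% of all units. With ET left out and no season term, a fit chosen after the data were seen, Ass1 (adjusted p = 0.0003374) and Glud1 (adjusted p = 0.0007271) passed, 2 of 8 against 12% of all units. On all 5 states without season, DESeq2 called 6 of the 7 genes for which it gave an adjusted p, against 50% of all units, and limma-voom called 2 of 8, against 23.8%.

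Warm states were compared with cold ones as SA and IBA together against ET and LT together, 6 libraries against 5. Of these, 3 of 8 genes were lower in the cold past the threshold (Glud1, Gls2 and Glul), against 17.6% of all units, and 0 of 8 were higher, against 18.6% of all units. At an adjusted p of 0.05, 6 of 8 were lower, against 33.7% of all units. The median log2 fold change of the 8 genes was -1.02, beside -0.04 over all units. Because the warm side includes summer animals and the cold side does not, this comparison mixes time of year with temperature. Within winter, from LT to IBA, 2 of 8 genes (Glud1 and Glul) were higher at an adjusted p of 0.05, against 25% of all units.

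Summer was compared with winter as SA against the mean of IBA, Ent, ET and LT, so that this comparison shares the SA, ET and LT libraries with the preceding one. 1 of 8 genes (Glul) was lower in winter past the threshold, against 6.83% of all units, and 0 of 8 were higher, against 4.19%. At an adjusted p of 0.05, 7 of 8 were lower, against 23.5% of all units. The median log2 fold change was -1.01, beside -0.02 over all units. In a bulk tissue such as this, fewer cells of a type and less RNA made per cell cannot be told apart.

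**Figure D2:**
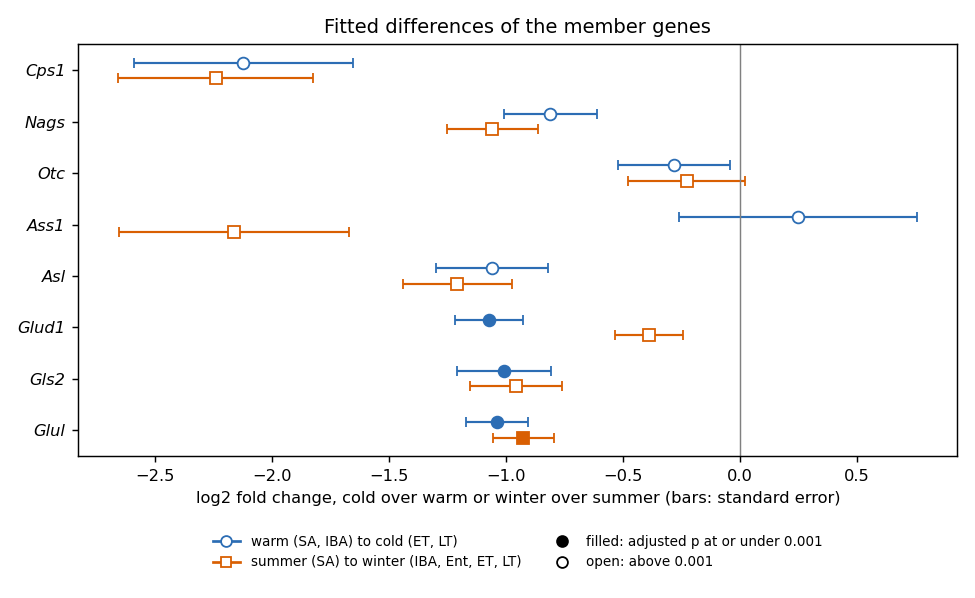
Points give the fitted log2 fold change of each gene with its standard error, from warm to cold (circles) and from summer to winter (squares), and filled points passed an adjusted p of 0.001. All points except Ass1 from warm to cold lie left of 0, and the points of Otc (-0.28 and -0.23) lie nearest to it among the lower ones.

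Ammonia enters the cycle through Cps1, carbamoyl phosphate synthetase 1, the mitochondrial enzyme that commits ammonia to urea. Its level was 6054, 13658 and 2643 CPM in the SA libraries, 4060, 1957 and 2702 in IBA, 2080, 1122 and 2377 in Ent, 1445, 433 and 1390 in ET, and 1418 and 673 in LT. All cold libraries lay below all SA and IBA libraries, but neighbouring states overlapped throughout the order SA, IBA, Ent, ET, LT, and SA replicate 3 lay below IBA replicates 1 and 3. The log2 fold change was -2.12 (SE 0.47, adjusted p = 0.00152) from warm to cold and -2.24 (SE 0.42, adjusted p = 0.001168) from summer to winter, the largest fitted differences of the 8 genes on the log2 scale in these comparisons, yet both short of the threshold. The summer value rested in part on SA replicate 2, without which it was -1.47 (adjusted p = 0.0166), whereas without SA replicate 3 both comparisons passed (adjusted p = 0.000467 and 0.000795).

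Nags encodes N-acetylglutamate synthase, which makes the obligate activator of Cps1. Its level was 315, 222 and 326 CPM in SA, 109, 188 and 171 in IBA, 181, 182 and 115 in Ent, 120, 169 and 101 in ET, and 124 and 101 in LT. All 3 SA libraries lay above all 11 winter libraries, while the 4 winter states overlapped one another. The log2 fold change from summer to winter was -1.06 (SE 0.19, adjusted p = 0.00107), just outside the threshold, and that from warm to cold was -0.81 (SE 0.20, adjusted p = 0.003021). Without ET replicate 2 the winter difference passed (adjusted p = 0.0007586), whereas without SA replicate 3 it was -0.96 (adjusted p = 0.009376).

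Otc encodes ornithine transcarbamylase, which joins carbamoyl phosphate to ornithine. Its level was 523, 291 and 882 CPM in SA, 488, 556 and 447 in IBA, 582, 676 and 476 in Ent, 411, 584 and 372 in ET, and 478 and 355 in LT. The 3 SA libraries spanned the values of every other state, and no pair of neighbouring states was separated. The log2 fold change was -0.28 (SE 0.24, adjusted p = 0.3136) from warm to cold and -0.23 (SE 0.25, adjusted p = 0.4855) from summer to winter.

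To set the other genes against Otc within the same library, the log2 ratio of reads was compared in an exact two-sided permutation test over libraries. These ratios, with 3 others, made 20 tests, which were chosen after the values had been seen, and none had an adjusted p of 0.05 or less. The lowest adjusted p was 0.05496, shared by 5 of the tests. Among them, reads per Otc read were 0.579 ± 0.198 (SD, n = 3) in SA and 0.272 to 0.314 in the means of the winter states for Nags. For Gls2, the log2 ratio to Otc differed by -0.76 from warm to cold, with an exact permutation p of 0.006494 (smallest possible 0.00216). Leaving out 1 library changed this. Without SA replicate 3, 8 of the 20 tests had an adjusted p of 0.05 or less (lowest 0.03967), and without Ent replicate 3, 7 did (lowest 0.04994), while without any other single library 0 did. For Cps1 to Otc, the difference of log2 ratio from summer to winter was -1.91, and it ran from -2.89 without SA replicate 3 to -0.91 without SA replicate 2.

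Ass1 encodes argininosuccinate synthetase, which adds aspartate as the other nitrogen donor. Its level was 1900, 2032 and 1383 CPM in SA, 99.5, 234 and 164 in IBA, 241, 545 and 273 in Ent, 2278, 279 and 258 in ET, and 520 and 363 in LT. SA was separated from IBA, Ent and LT, and IBA lay below Ent, ET and LT without overlap, but ET replicate 1 reached the level of SA while the other ET libraries stayed near Ent. In IBA its log2 fold change against SA was -3.42 (SE 0.75, adjusted p = 0.01961), the widest of the 8 genes in that step. Without ET replicate 1, whose spread enters the shared estimate, its adjusted p was 0.0009609, whereas without IBA replicate 3 it was 0.09075.

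From summer to winter, Ass1 had a log2 fold change of -2.17 (SE 0.49, adjusted p = 0.003892), and without ET replicate 1 it was -2.62 (adjusted p = 3.241e-05). Without SA replicate 2 the adjusted p was 0.01501. From warm to cold the log2 fold change of Ass1 was 0.25 (SE 0.51, adjusted p = 0.6883), and without ET replicate 1 it turned to -0.66 (adjusted p = 0.05619). ET replicate 1 was also at least 4-fold above both other ET libraries, at 10 CPM or more, for 9 other units of 6324, among them Sds, serine dehydratase, at 303 CPM, Cyp1a2 at 257 CPM and Noct at 173 CPM. The corresponding numbers of units for the other libraries ranged from 0 to 11, each LT library being set against 1 other. The nearest upstream unit, Hmcn2, lies 8.58 kb from Ass1 on the same strand and had a log2 fold change of -3.56 from warm to cold.

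Asl encodes argininosuccinate lyase, which splits the product of Ass1 into arginine and fumarate. Its level was 146, 99.6 and 122 CPM in SA, 61.7, 94.1 and 73.3 in IBA, 52.4, 55.9 and 36.2 in Ent, 64.1, 25.7 and 44.8 in ET, and 35.2 and 60.2 in LT. SA lay above all winter libraries and IBA above Ent, whereas Ent, ET and LT overlapped. The log2 fold change was -1.21 (SE 0.23, adjusted p = 0.001433) from summer to winter and -1.06 (SE 0.24, adjusted p = 0.001772) from warm to cold, with neither past the threshold. Without ET replicate 1 both passed (adjusted p = 0.0006114 and 0.0005401). Other omissions weakened both. From summer to winter the log2 fold change was -1.07 without SA replicate 1 (adjusted p = 0.0104), and from warm to cold it was -0.89 without LT replicate 1.

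**Figure D3:**
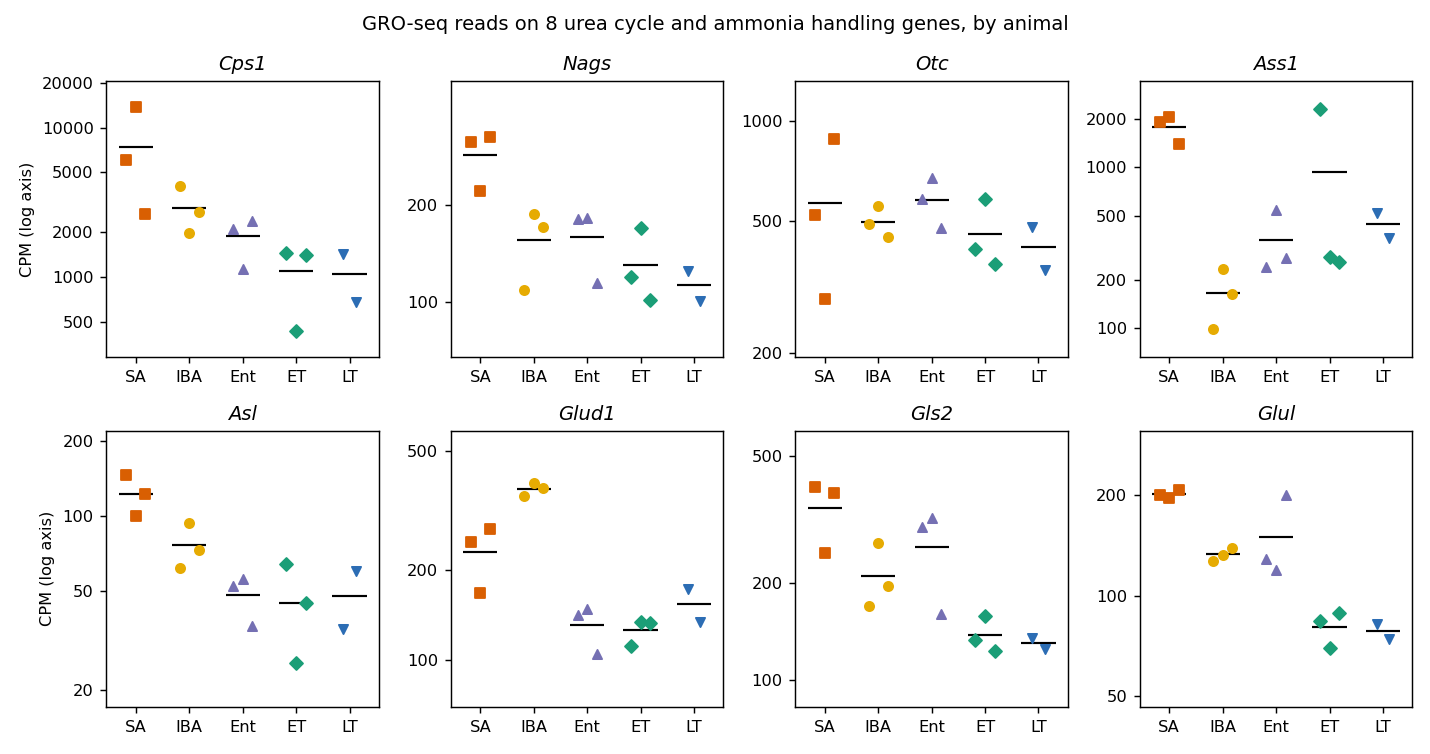
Each panel gives the CPM of a gene on a log axis, with a point for each library and a bar at the mean of the state (n = 3, and n = 2 for LT). Glud1 is highest in IBA (354 to 390 CPM), Glul in ET and LT (69.7 to 88.6 CPM) lies below all other libraries, and Ass1 in ET replicate 1 (2278 CPM) lies apart from the other ET libraries.

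Glud1 encodes mitochondrial glutamate dehydrogenase, which releases ammonia from glutamate or takes it up in the reverse direction. Its level was 248, 168 and 274 CPM in SA, 354, 390 and 378 in IBA, 141, 148 and 105 in Ent, 112, 134 and 134 in ET, and 173 and 135 in LT. The IBA libraries lay above those of every other state, whereas the lowest SA library lay below the higher LT library. Ent overlapped ET and LT, and the lower LT library lay just above the highest ET library. Glud1 fell by 1.07 on the log2 scale from warm to cold (SE 0.14, adjusted p = 3.394e-05). This call held in all 24 alternatives. Over the fits that each left out a library, the log2 fold change ran from -1.17 to -0.99. The looser threshold among the 24 could not lose a call, and the filter on counts and the limit to single-gene units both keep this unit. None of the 24 included season, which could not be fitted for comparisons with ET.

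Glud1 was also followed along the torpor cycle. From LT to IBA it rose with a log2 fold change of 1.28 (SE 0.22, adjusted p = 0.000467), the only 1 of 8 genes past the threshold in this step, against 7.73% of all units higher. At an adjusted p of 0.05 Glul joined it (log2 fold change 0.76, adjusted p = 0.006969), 2 of 8 genes against 25% of all units. From IBA to Ent the log2 fold change of Glud1 was -1.51 (SE 0.19, adjusted p = 0.002391), and it passed without SA replicate 2 (adjusted p = 0.0007775) and in DESeq2 (adjusted p = 1.333e-10). Without IBA replicate 1 the adjusted p for that step was 0.01312. The difference from LT to IBA was similar or larger but no longer past the threshold with replicate number as a block (log2 fold change 1.29, adjusted p = 0.001598), with ET left out (1.26, adjusted p = 0.001317) and with ET left out and season as a covariate (1.55, adjusted p = 0.003746). In each fit that left out an IBA or an LT library it ran from 1.11 to 1.47, with an adjusted p from 0.001387 to 0.009782.

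Gls2 encodes the liver form of glutaminase, which releases ammonia from glutamine beside the cycle. Its level was 400, 249 and 383 CPM in SA, 169, 268 and 197 in IBA, 300, 319 and 161 in Ent, 133, 158 and 123 in ET, and 135 and 125 in LT. All cold libraries lay below all SA and IBA libraries, and 2 of the 3 Ent libraries lay within the range of SA. From LT to IBA, both in winter, the log2 fold change of Gls2 was 0.70 (SE 0.30, adjusted p = 0.06557). Gls2 fell by 1.01 on the log2 scale from warm to cold, where SA is part of the warm side (SE 0.20, adjusted p = 0.0006886). This call was lost with library totals alone (adjusted p = 0.001631), with uniquely mapped reads as library size (adjusted p = 0.002853), with the replicate block (adjusted p = 0.001426) and in 9 of the fits that left out 1 library.

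Glul encodes glutamine synthetase, which captures ammonia as glutamine near the central vein. Its level was 200, 196 and 208 CPM in SA, 127, 132 and 139 in IBA, 129, 120 and 200 in Ent, 84.2, 69.7 and 88.6 in ET, and 82.4 and 74.2 in LT. SA lay above IBA, and IBA above ET and LT, without overlap, and only Ent replicate 3 reached the summer level among the winter libraries. Glul fell by 1.04 on the log2 scale from warm to cold (SE 0.13, adjusted p = 2.449e-05) and by 0.93 from summer to winter (SE 0.13, adjusted p = 0.0002086). The cold call held in all 24 alternatives, which, as for Glud1, included the looser threshold and did not include season. Over the fits that each left out a library, its log2 fold change ran from -1.08 to -0.99. The winter call was lost without SA replicate 1 (adjusted p = 0.001184) or SA replicate 3 (adjusted p = 0.001838).

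Some groups of libraries did not overlap at all. From SA to IBA, 4 of 8 genes (Ass1, Asl, Nags and Glul) were lower without overlap, against 13.6% of all units, and Glud1 was higher without overlap, 1 of 8 against 14.3%. Cps1, Gls2 and Glul were lower in the cold without overlap, 3 of 8 genes against 19.5% of all units. Nags and Asl were lower in winter without overlap, 2 of 8 against 3.92% of all units.

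In the single steps of the cycle few differences of the 8 genes passed. From SA to IBA edgeR called 0 of 8 in either direction, where it called 0% of all units lower and 0.0158% higher, and limma-voom called 0 of 8 (0.0158% of all units). DESeq2 called 0 of 7 (3.5% of all units), since it gave no adjusted p for Ass1 in any comparison. At an unadjusted p under 0.05 there were 7 of 8, against 22% of all units, and at an adjusted p of 0.05 there was 1 lower (Ass1), against 2.85%. From IBA to Ent edgeR called 0 of 8 (0.0158% of all units lower and 0.0158% higher), with 1 of 8 at an unadjusted p under 0.05 (32.5% of all units) and 1 lower at an adjusted p of 0.05 (7.34%), in each case Glud1. DESeq2 called 1 of 7 in that step, against 7.07% of all units, and limma-voom 0 of 8, against 0.0158%.

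From Ent to ET edgeR called 0 of 8, where 1.2% of all units were lower and 1.01% higher, and DESeq2 called 1 of 7 (14.8% of all units) and limma-voom 0 of 8 (2.13%). Glul (log2 fold change -0.89, SE 0.18, adjusted p = 0.003198) and Gls2 (-0.91, SE 0.26, adjusted p = 0.02005) had an unadjusted p under 0.05, 2 of 8 against 40.5% of all units. Both were also lower at an adjusted p of 0.05, against 13.4% of all units. From ET to LT edgeR and limma-voom called 0 of 8 (0% of all units in either direction) and DESeq2 0 of 7 (0.585%), and at an unadjusted p under 0.05 there were 0 of 8 against 8.7% of all units. The 8 genes thus showed no detectable difference between early and late torpor with 3 and 2 animals.

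The genes differed in how they varied together over the 14 libraries, which share state, season and depth. Gls2 and Nags had a Pearson r of 0.908 of their log2 CPM, Cps1 and Glul 0.802 and Gls2 and Glul 0.716. Cps1 and Otc had an r of -0.231 and Ass1 and Glud1 -0.246. Across all single-gene units, the profile most like Cps1 was that of SLC39A14, a zinc and manganese transporter (r = 0.937), followed by Abtb2 (0.931) and Rnf40 (0.902). Ass1 was most like Abcc6, an efflux transporter (0.965), Tsku (0.934) and a unit containing ACSM1 (0.886). In ET replicate 1, Ass1 was 8.18-fold and the ACSM1 unit 4.62-fold above the higher of the other ET libraries, and this library enters the correlations.

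Profiles close to Nags were those of Gls2 (0.908) and Acadsb (0.905), and the closest to Gls2 were Sphk2 (0.930), G38772 (0.917) and Nags (0.908). Glul was closest to Tm4sf4 (0.950), Kmo, an enzyme of tryptophan breakdown (0.945), and LOC101961272 (0.944). Glud1 was closest to Nfyc (0.933), INTS6L_like_gene8579 (0.927) and Hacd3 (0.920), and Asl to Gramd4 (0.943), Tbc1d22a (0.930) and Unc93b1 (0.924). Otc had the weakest partners, G38685 (0.836), Echdc2 (0.816) and Ap3m1 (0.771).

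Genes around the cycle were described from 5 lists, whose median log2 fold changes from warm to cold were -0.14 (nitrogen entry and aspartate supply), -0.75 (transporters), -0.37 (ornithine, arginine and glutamine use), -0.09 (regulators) and -0.59 (zonation), beside -0.04 over all units. Of the 21 genes of nitrogen entry and aspartate supply, 12 had a single-gene unit, and 4 of 12 were lower and 3 of 12 higher in the cold past the threshold (17.6% and 18.6% of all units). Mdh1 and Mdh2, the malate dehydrogenases that help regenerate aspartate, rose in the cold with log2 fold changes of 1.08 (SE 0.13) and 1.26 (SE 0.15). Fh, fumarate hydratase, which takes up the fumarate that Asl releases, fell by 0.87 (SE 0.12) on the log2 scale in the cold and by 0.997 (SE 0.12) in winter. Gldc, glycine decarboxylase, fell by 2.29 (SE 0.35) in the cold. Without LT replicate 1 (log2 fold change -2.27) or LT replicate 3 (-2.31), Gldc lost that call. Its winter log2 fold change was -1.76 (SE 0.32, adjusted p = 0.0009859), and without SA replicate 2 it was -0.79 (adjusted p = 0.006568). When either of these LT libraries was left out, 1 gene of this list was lower in the cold.

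Of the 33 transporters of urea cycle intermediates, glutamine, ammonia and urea, 12 had a single-gene unit, and 4 of 12 were lower and 1 of 12 higher in the cold (17.6% and 18.6% of all units), with 2 lower without LT replicate 3. Slc7a7 and Slc3a2, which together form an exchanger of cationic and neutral amino acids, fell by 1.55 (SE 0.14) and 1.96 (SE 0.19) on the log2 scale in the cold. Slc7a2, a carrier of arginine and ornithine, had 2050 ± 655 CPM (SD, n = 3) in SA and between 386 and 648 CPM in the means of the winter states, and fell by 2.05 (SE 0.21) from summer to winter.

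Of the 40 genes that use ornithine, arginine, proline, glutamate and glutamine, 11 had a single-gene unit, and 3 of 11 were lower and 1 of 11 higher in the cold (17.6% and 18.6% of all units), with 1 lower without LT replicate 3. Oat, ornithine aminotransferase, which draws ornithine away from the cycle, had 194 ± 22.6 CPM in SA, 9.31 ± 2.31 in IBA, 9.46 ± 1.32 in Ent, 27.9 ± 21.8 in ET (n = 3 each) and 13.6 ± 5.21 in LT (n = 2). It fell by 3.84 (SE 0.29, adjusted p = 5.691e-06) on the log2 scale in winter. Gamt, which makes creatine from guanidinoacetate, fell by 2.12 (SE 0.15) in the cold, and Ppat, a glutamine-using enzyme of purine synthesis, rose by 1.84 (SE 0.14).

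Of the 23 hormone and transcription regulators known for urea cycle genes, 15 had a single-gene unit, and 5 of 15 were lower and 2 of 15 higher in the cold (17.6% and 18.6% of all units). Hnf4a, a hepatocyte nuclear receptor, had 922 ± 52.3 CPM in SA and 387 ± 45.6 in LT and fell by 1.10 (SE 0.13) in the cold on the log2 scale. Nr1i2, the pregnane X receptor, fell by 1.22 (SE 0.14) and Foxa1, a forkhead factor, by 0.74 (SE 0.10). Of the 24 genes of liver zonation, 14 had a single-gene unit, and 2 of 14 were lower in the cold (17.6% of all units), with 1 to 4 when single libraries were left out. With all libraries the 2 were Pck1, the gluconeogenic enzyme of the portal side, which fell by 2.57 (SE 0.35), and Tbx3 (log2 fold change -1.53, SE 0.28). Axin1, a Wnt pathway inhibitor, did not pass (log2 fold change -1.001, SE 0.23, adjusted p = 0.001892).

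**Figure D4:**
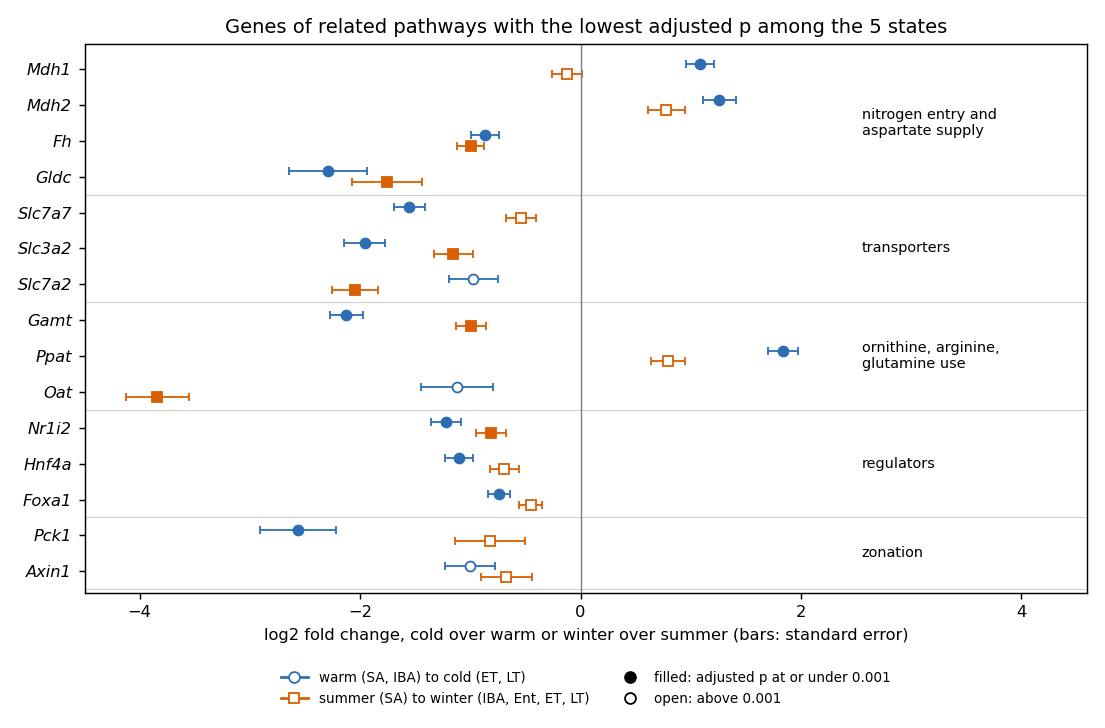
Points give the fitted log2 fold change with its standard error, from warm to cold (circles) and from summer to winter (squares), for up to 4 genes of each of 5 related lists, and filled points passed an adjusted p of 0.001. In the cold Gldc, Slc3a2, Gamt and Pck1 are lower by about 2 or more log2 units and Ppat, Mdh2 and Mdh1 are higher by over 1, while Oat has its large difference (-3.84) between summer and winter.

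The liver label was checked against marker genes. Of 12 hepatocyte markers 10 had a unit, 5 of them alone, and the summed level of these 5 was 5770 to 6360 CPM in SA, 6202 to 9008 in IBA, 5341 to 5843 in Ent, 3022 to 4256 in ET and 3817 to 5386 in LT. In the cold 3 of the 5 were lower past the threshold (Ttr, Tf and Fgb), against 17.6% of all units, and Apob was not (log2 fold change -0.23, SE 0.16, adjusted p = 0.2177). The single bile duct marker with a unit, Sox9, had 7.07 to 46.1 CPM and a log2 fold change of -1.33 in the cold. The 3 endothelial markers summed to 124 to 241 CPM and did not move together in the cold. Kdr was lower past the threshold (log2 fold change -0.86, adjusted p = 0.0009432), 1 of 3 against 17.6% of all units. Pecam1 (-0.68, adjusted p = 0.009086) and Stab1, which was higher (0.39, adjusted p = 0.0668), did not pass. Macrophage markers had no single-gene unit and stellate cell markers no unit. The part of these shifts in the results for the 8 genes was not tested.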

How the data were processed

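GRO-seq was measured in liver nuclei of 14 animals. Per the study's methods, the authors trimmed reads with cutadapt, aligned them with BWA to HiC_Itri_2, redrew gene ends from fstitch segments of the same reads, left out the first 500 nt of each gene, joined overlapping genes and deposited raw counts from featureCounts. Because torpid libraries entered this redrawing, unit ends depend on these data. From the counts, TMM factors and quasi-likelihood tests were computed in edgeR 4.0.16 (R 4.3.3) over all 6324 units, with no filter. CPM use TMM-normalized library sizes, and log2 CPM a prior count of 2. The tests were repeated in DESeq2 1.42.0 and in limma 3.58.1 (voom), and with other scalings, a filter, a threshold of 0.05, a replicate block, season, ET left out, and each library left out. Animals sharing a replicate number did not deviate together: 6 of 26 pairs had r over 0.1. No library duplicated another. The edgeR fit was also run on simulated counts with planted changes from warm to cold. All simulated units had the same setting for spread, unlike the genes here, so that run does not give the power for these genes.

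The members and lists were chosen with earlier results of these data known. Named genes are every member, its 3 closest single-gene profiles, and for each list up to 4 genes with the lowest adjusted p among the states, or the 2 lowest where fewer than 2 passed 0.001. Of the genes so named, 2 are not reported here. ET replicate 1 units, markers and Tbx3 were named after their values were seen. No genome or sequence table was used here. Figures used Python 3.11.15 and matplotlib 3.10.9.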

Additional observations from a re-analysis of the deposited data

How the results depend on the processing

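The number of the 8 genes called depended most on the threshold and the tool, as did the share of all units called, given in brackets. Among the 5 states it was 2 (25.5%), and it was 6 with DESeq2 (50%), which gave no adjusted p for Ass1, 7 at an adjusted p of 0.05 (62%) and 0 with season as a covariate and ET left out (1.23%), beside 2 with ET left out alone (12%). From warm to cold it was 3 (36.3%), and 6 with DESeq2 (48.3%) and 6 at 0.05 (64.5%). From summer to winter it was 1 (11%), and 5 with DESeq2 (25.2%) and 7 at 0.05 (44.3%). From LT to IBA it was 1 (17.4%), and 2 at 0.05 (49.8%), 0 with the replicate block (12.4%), 0 with ET left out (15.2%) and 0 with ET left out and season (3.15%). From SA to IBA it was 0 (0.0158%), and 1 at 0.05 (5.22%). From IBA to Ent it was 0 (0.0316%), and 1 with DESeq2 (7.07%) and 1 at 0.05 (16.1%), and from Ent to ET 0 (2.21%), and 1 with DESeq2 (14.8%) and 2 at 0.05 (28.8%). Apart from the LT to IBA count, the replicate block gave counts within 1.5 times. The replicate numbers are not known here to mark a shared litter or day, so the block is not taken as a paired design. Leaving out each library in turn gave 2 to 3 among the 5 states, 0 to 1 from SA to IBA, 0 to 1 from IBA to Ent, 0 to 2 from LT to IBA, 2 to 3 from warm to cold, 0 to 3 from summer to winter and 0 in both steps that involve ET. From summer to winter the 0 came without SA replicate 1 and the 3 without ET replicate 1, from SA to IBA the 1 without ET replicate 1. Season could not be fitted for comparisons with ET.

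Signs turned only where no call was made. With limma-voom Otc was 0.0059 from SA to IBA, Cps1 0.0613 from ET to LT and Ass1 -0.14 from warm to cold, with season and ET left out Nags was -0.27 and Gls2 -0.17 from IBA to Ent, and with uniquely mapped reads as library size Asl was 0.0106 and Glud1 0.069 from Ent to ET and Mdh1 0.0335 from summer to winter. Over the fits without 1 library, the log2 fold change ran from -0.50 to 0.29 for Otc from SA to IBA, from -0.17 to 0.22 for Nags and -0.10 to 0.31 for Glul from IBA to Ent, and from -0.40 to 1.89 for Ass1, -0.44 to 0.18 for Asl and -0.20 to 0.0583 for Glud1 from Ent to ET. Between ET and LT it ran from -0.70 to 0.38 for Cps1, -1.53 to 0.72 for Ass1, -0.35 to 0.43 for Asl, -0.36 to 0.0897 for Otc, -0.37 to 0.0294 for Nags, -0.16 to 0.0232 for Gls2 and -0.14 to 0.0265 for Glul. It ran from -0.66 to 0.47 for Ass1 from warm to cold and from -0.54 to 0.25 for Otc from summer to winter. The log2 ratio differences ran from -0.13 to 0.0430 for Glul to Gls2, -0.41 to 0.70 for Ass1 to Otc and -0.26 to 0.0943 for Glud1 to Glul from warm to cold, and from -0.12 to 0.21 for Glul to Gls2 from summer to winter.

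Scaling to uniquely mapped reads moved the median log2 fold change of all units from -0.04 to 0.18 from warm to cold and from -0.02 to 0.14 from summer to winter, and the share of calls that were higher from 51.3% to 68.5% and from 38% to 61.1% (from LT to IBA from 44.4% to 28.5%), while 7 and 8 of the 8 genes stayed lower. With library totals alone the median from warm to cold was 0.07, and 52.1% of the calls from summer to winter were higher. From Ent to ET that share was 45.7%, and 35.4% to 71.3% with other scalings. No scaling used here measures total transcription, so rises and falls between states stay relative. Groups of 2 or 3 animals, seasons that differ between states and reads counted on units drawn from the same libraries limit these comparisons.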
